A study of Mus musculus with 6 samples.

Results

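The genes described here are 9 that set or remove methylation of histone H3 at lysine K27 (H3K27): the Polycomb repressive complex 2 (PRC2) subunits Ezh1, Ezh2, Eed, Suz12, Rbbp4, Rbbp7 and Jarid2, and the demethylases Kdm6a and Kdm6b. They were found by NCBI gene ID in the gene tables of 6 RNA-seq libraries, among 17254 genes with a count in any library, and all 9 passed the filter on low values. The cells were mouse neural stem and progenitor cells (NSPCs), grown with EGF and bFGF at 20 ng/mL each in N2 medium. For 48 h they were left without treatment (control), given 5 µM paraquat (PQ), a herbicide that cycles electrons to oxygen and makes superoxide, or given N-acetylcysteine (NAC), a thiol antioxidant, at 5 mM by the study's methods. Each group had 2 libraries, with 9680436 to 10698241 expected counts per library. The comparisons ask how a shift of the redox state toward oxidation or reduction changes gene expression in NSPCs.

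Control 1 and PQ 1 are labelled as Ink/Ark knockout on C57BL/6, with RNA from a NucleoSpin kit and an Illumina protocol. The other 4 libraries (control 2, PQ 2, NAC 1 and NAC 2) carry no genotype or strain label, with TRIZOL extraction and BGISEQ-500 sequencing. The study's methods describe an immortalised Ink/Arf-/- culture from neonatal mice, so that by those methods all 3 groups lack an intact Ink4a/Arf locus. Cdkn2a, the gene of that locus that encodes p16INK4a and p19ARF, had 137 and 120 counts in the libraries labelled knockout and 130 to 162 in the others. The deleted exons are not given in the sources used here, so a total over the gene does not check the label. Labels do not say whether libraries of a group came from separate cultures, and p-values therefore measure only the spread between these libraries, which may be technical.

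Markers of neural stem and progenitor cells were abundant. The summed level of 12 such markers, in FPKM (a level scaled by transcript length and library total), was 3460 and 3510 in control, 3780 and 3830 in PQ, and 2740 and 2660 in NAC, with Vim the most abundant. Hes5 and Prom1 were near 0, at 0.16 FPKM or lower in every library. Of the markers that changed, in PQ against control Nes rose and Sox2 and Slc1a3 fell, and in NAC Slc1a3 rose and Nes, Sox2 and Vim fell. Of the oligodendrocyte lineage, Olig1 and Olig2 were high, and Sox10 did not exceed 0.04 FPKM. Among 7 neuronal markers 6 had a mean under 1 FPKM, Rbfox3 was at 0, and Map2 was the exception, at 34.2 and 35.6 in control and 58.0 and 64.9 in NAC. Microglial markers were low, with 6 of 7 under a mean of 1 FPKM, as were 4 of 4 endothelial and 5 of 5 fibroblast and mural markers. P2ry12, the microglial marker over that mean, rose in NAC against control (log2 fold change 1.18, edgeR adjusted p = 0.0033). What part these marker differences have in the results on PRC2 was not tested.

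PRC2 places methyl groups on H3K27, a mark of silent developmental genes, and takes them from S-adenosylmethionine. EZH2 or EZH1 is the catalytic subunit, and works only together with EED and SUZ12; in stem and progenitor cells of the brain the complex keeps the genes of other lineages shut. KDM6A and KDM6B take the methyl groups off again, in a reaction that uses oxygen, iron and 2-oxoglutarate. The Ink4a/Arf locus is itself a classic target of Polycomb repression.

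Levels per transcript length set the members apart. In mean FPKM over the 6 libraries, the histone-binding subunits Rbbp7 (102) and Rbbp4 (76.6) stood highest, followed by Ezh2 (60.6), Suz12 (43.5) and Eed (41). The demethylases Kdm6b (17) and Kdm6a (11) came next, and the accessory subunit Jarid2 (5.04) and the second catalytic subunit Ezh1 (3.53) were lowest. Rbbp7 exceeded the level of 94.2% of the genes tested and Ezh1 that of 16.2%. Over libraries, Suz12 (34.7 to 52.1 FPKM) and Eed (37.7 to 45.5) overlapped, as did Ezh2 (45.9 to 73.1) with both Suz12 and Rbbp4 (68.3 to 85.9). Kdm6b (14.6 to 19.7) and Kdm6a (9.77 to 11.8) did not overlap, nor did Jarid2 (4.21 to 5.73) and Ezh1 (2.79 to 3.99).

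**Figure D1:**
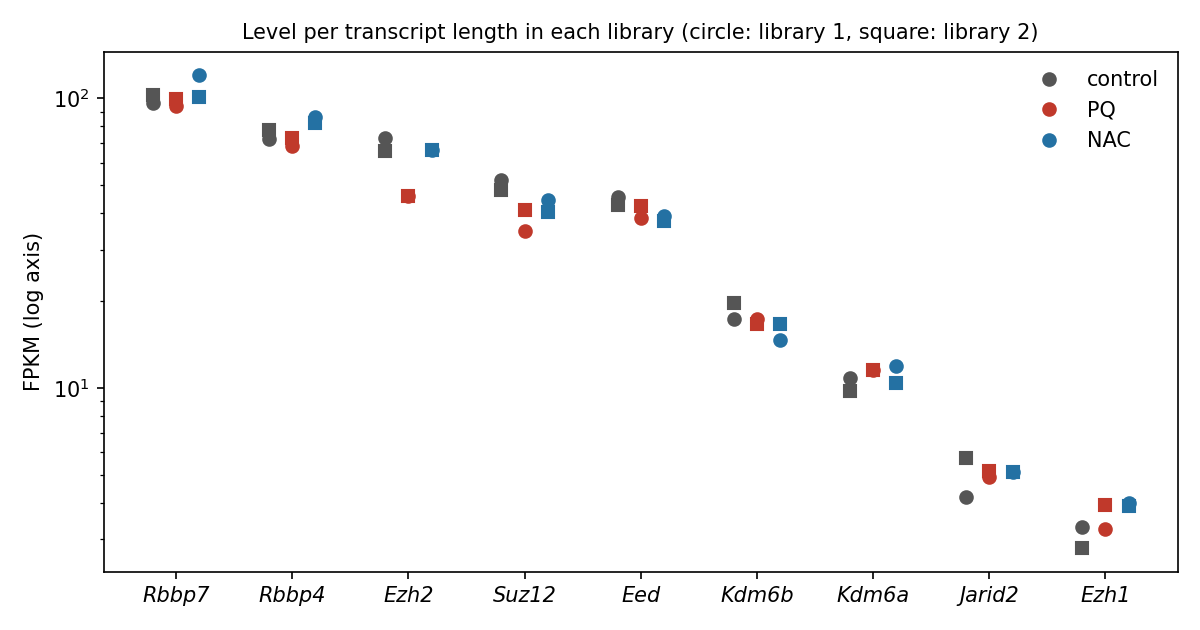
FPKM (log axis) of the 9 genes in each of the 6 libraries, ordered by mean level, with groups in colour, circles for library 1 and squares for library 2. Rbbp7 is highest, with a mean of 102, and Ezh1 lowest, with 3.53; in Ezh2 both PQ libraries lie under the other 4.

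Ezh2, the main catalytic subunit in dividing cells (NCBI gene 14056, chr6:47530274-47595270), was lower after PQ. It measured 199 and 177 CPM (counts scaled to a common library size by the TMM method) in control 1 and 2, 121 and 124 in PQ 1 and 2, and 176 and 173 in NAC 1 and 2. Both PQ libraries thus lay under every control and NAC library with no overlap. Control and NAC lay close together, with NAC under both controls. A lack of overlap between groups of 2 was common over all genes. Its share was 57.9% in PQ against control, 56.6% in NAC against control and 66.5% in PQ against NAC. Of the genes described here 6, 6 and 3 lacked overlap in these comparisons. A lack of overlap, here and below, therefore does not set a gene apart by itself. The mean CPM of control was 188 ± 15.7, that of PQ 122 ± 1.97 and that of NAC 174 ± 1.78 (each with the SD over 2 libraries). In PQ against control Ezh2 fell by 34.9%, a log2 fold change of -0.62 (SE 0.10, 95% interval -0.82 to -0.42, adjusted p = 2.0e-04 by edgeR). Against NAC the log2 fold change of PQ was -0.51 (SE 0.10, adjusted p = 4.6e-04 by edgeR), and both PQ libraries were lower than both NAC libraries. NAC against control gave -0.11, with an interval of -0.31 to 0.09 (edgeR adjusted p = 0.47). Within the labelled protocols, PQ minus control was -0.72 for the NucleoSpin pair and -0.52 for the TRIZOL pair on the log2 scale. In bulk RNA, fewer cells of a type and less RNA per cell cannot be told apart.

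Suz12, the subunit that EZH2 needs for stability and activity (NCBI gene 52615, chr11:79993106-80034123), had 239 and 218 CPM in control, 154 and 186 in PQ, and 198 and 177 in NAC. All 4 treated libraries lay under both controls; PQ and NAC overlapped, and PQ 1 was the lowest of the 6. PQ against control gave a log2 fold change of -0.43 (SE 0.11, interval -0.65 to -0.21, adjusted p = 0.0079 by edgeR). Without PQ 1 this was -0.30 and missed the threshold, with an edgeR adjusted p of 0.19 in a range of 3.5e-04 to 0.19 over 16 alternatives. By labelled protocol PQ minus control was -0.63 (NucleoSpin) and -0.23 (TRIZOL). NAC against control was -0.28 (SE 0.11, edgeR adjusted p = 0.067); it passed the threshold with no filter on low values (-0.28) and without control 2 (-0.35). Against the TRIZOL control, NAC 1 and NAC 2 were -0.14 and -0.30. PQ against NAC was -0.14, with an adjusted p of 0.33.

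Eed, which binds the finished mark and stimulates the enzyme (NCBI gene 13626, chr7:89954654-89980976), had 95.6 and 88.7 CPM in control, 78.7 and 88.0 in PQ, and 80.1 and 75.9 in NAC. Controls were the highest of the 6 libraries, though PQ 2 came close to control 2. Neither treatment passed the test: log2 fold change -0.14 in PQ (interval -0.36 to 0.07, edgeR adjusted p = 0.35) and -0.24 in NAC (-0.45 to -0.03, adjusted p = 0.11). By labelled protocol PQ minus control was -0.28 (NucleoSpin) and -0.01 (TRIZOL). Ezh1, the catalytic paralog that is more prominent in resting cells (NCBI gene 14055, chr11:101191115-101226463), had 14.3 and 12 CPM in control, 13.6 and 16.9 in PQ, and 16.8 and 16.2 in NAC. PQ 1 lay between the controls, and both NAC libraries lay above them. Its log2 fold change was 0.21 in PQ (interval -0.14 to 0.56) and 0.33 in NAC (-0.02 to 0.67), with edgeR adjusted p of 0.42 and 0.18.

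Of the 9 genes, 2 passed the threshold of an adjusted p under 0.05 in PQ against control, both lower (Ezh2 and Suz12), where 9.45% of 11717 genes tested were lower and 9.76% higher. In NAC against control edgeR called 0 of 9, as did DESeq2 and limma, with 9.01% of all genes higher and 9.64% lower; at an unadjusted p under 0.05 there were 3 (Eed, Suz12 and Kdm6b). Scaling by library totals moved the share of higher genes among all those called for NAC from 48.3% to 58.5%. For PQ against NAC 1 member (Ezh2) was called, lower, beside 15.7% of all genes lower and 16% higher. In that comparison the 7 members other than Ezh2 and Rbbp4 lay between -0.18 (Rbbp7) and 0.14 (Kdm6b) and did not pass. Without PQ 1 the number of genes called across all tested dropped from 2250 to 866 in PQ against control and from 3708 to 2343 in PQ against NAC, and without NAC 1 it dropped from 2186 to 1259 in NAC against control. The PQ and NAC comparisons share the control libraries. The median log2 fold change of the 9 was -0.11 in PQ and -0.01 in NAC, against 0 over all genes tested in both.

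**Figure D2:**
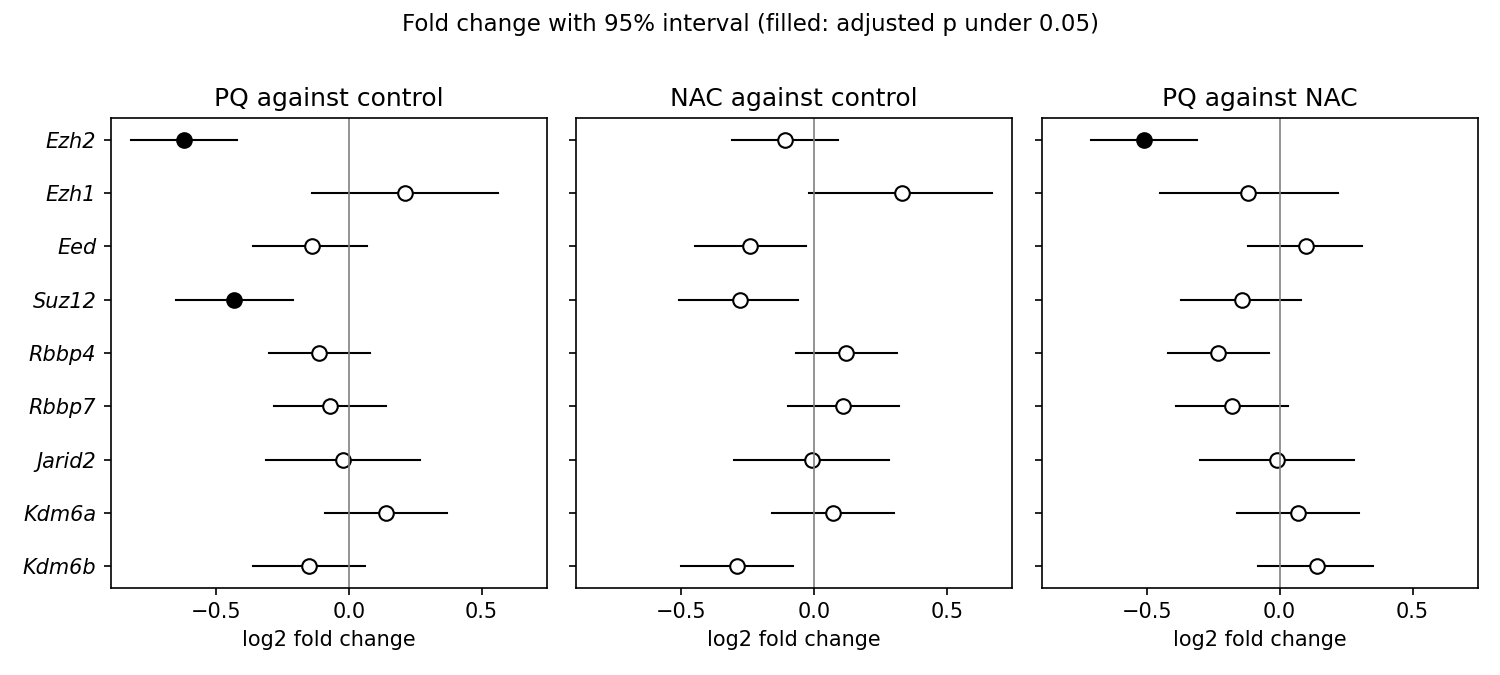
Log2 fold change of each gene with its 95% interval from the edgeR fit in the 3 comparisons; filled points have an adjusted p under 0.05. Ezh2 (-0.62) and Suz12 (-0.43) are filled for PQ against control, none for NAC against control, and Ezh2 (-0.51) for PQ against NAC; the Suz12 call is lost without PQ 1.

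Ratios of FPKM within a library show the make-up of the transcripts. Ezh2 over Ezh1 was 22.1 and 23.5 in control, 14.2 and 11.7 in PQ, and 16.7 and 17.0 in NAC. PQ libraries were lowest and NAC libraries lay between, without overlap between the groups. Ezh2 over Eed was 1.61 and 1.54 in control, 1.18 and 1.08 in PQ, and 1.69 and 1.76 in NAC, so PQ alone lay under the controls. Suz12 over Eed was 1.15 and 1.13 in control, 0.896 and 0.970 in PQ, and 1.13 and 1.07 in NAC. These ratios were described without a test.

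**Figure D3:**
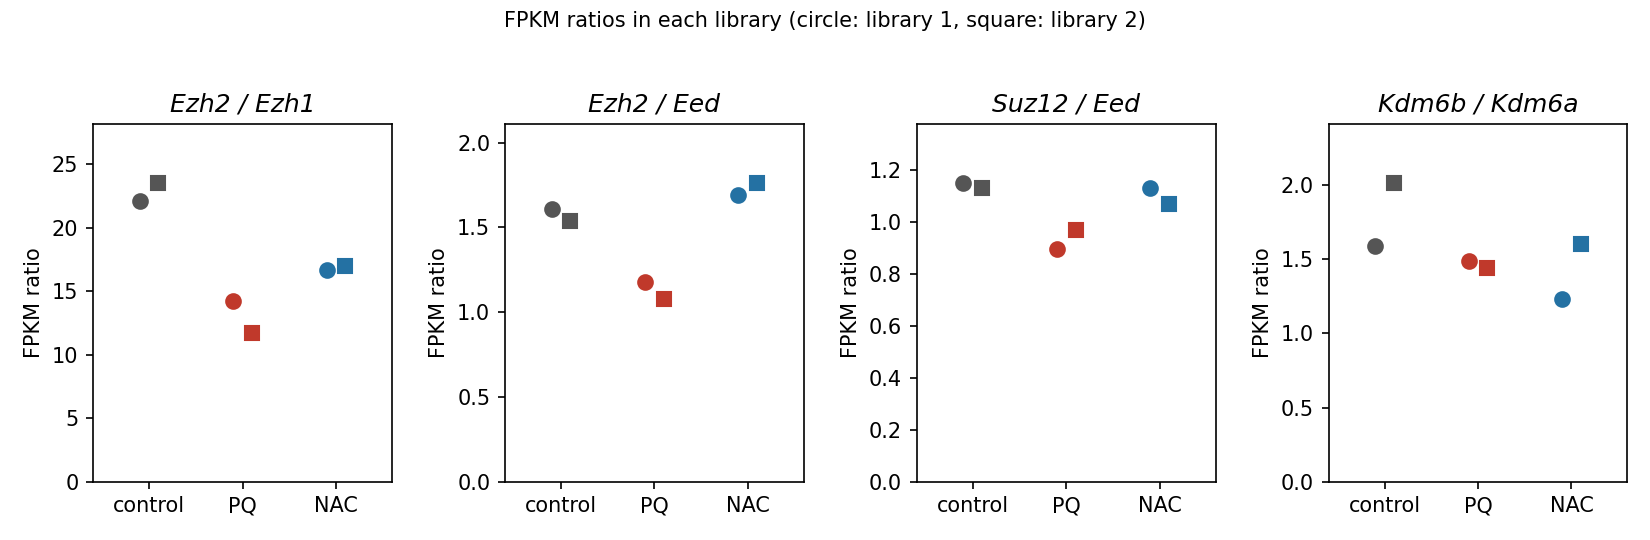
Ratio of FPKM in each library for 4 pairs of genes, with circles for library 1 and squares for library 2. The Ezh2 to Ezh1 ratio is 22.1 and 23.5 in control and 14.2 and 11.7 in PQ, while that of Kdm6b to Kdm6a is 1.59 and 2.01 in control and 1.23 and 1.60 in NAC.

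Because Ezh2 and Suz12 were lower together after PQ, their promoters are shown with that of Eed, which did not pass the test. The sequences are from RefSeq on GRCm38.p6, where 8 of the 9 genes matched, and run from 250 bases before the start to 30 bases after it. Capitals mark a match to any of 4 E2F-type motifs (TTTCCCGC, TTTGGCGC, TTTCGCGC or TTTGCCGC, searched on both strands). The Ezh2 window is chr6:47595001-47595280 on the minus strand; the annotated gene extends upstream of the start used. That of Suz12 is chr11:79992856-79993135 on the plus strand, and that of Eed is chr7:89980947-89981226 on the minus strand.
Ezh2: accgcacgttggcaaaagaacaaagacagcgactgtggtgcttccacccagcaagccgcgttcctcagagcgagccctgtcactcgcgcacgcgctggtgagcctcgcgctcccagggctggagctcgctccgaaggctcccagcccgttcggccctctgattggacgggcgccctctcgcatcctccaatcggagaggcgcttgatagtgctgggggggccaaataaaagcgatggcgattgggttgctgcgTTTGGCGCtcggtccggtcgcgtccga
Suz12: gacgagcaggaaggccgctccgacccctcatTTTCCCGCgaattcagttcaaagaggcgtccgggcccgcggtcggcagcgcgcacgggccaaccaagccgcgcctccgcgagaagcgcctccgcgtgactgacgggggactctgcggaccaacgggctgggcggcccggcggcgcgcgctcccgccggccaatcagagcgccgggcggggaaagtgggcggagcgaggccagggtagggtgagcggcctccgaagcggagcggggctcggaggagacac
Eed: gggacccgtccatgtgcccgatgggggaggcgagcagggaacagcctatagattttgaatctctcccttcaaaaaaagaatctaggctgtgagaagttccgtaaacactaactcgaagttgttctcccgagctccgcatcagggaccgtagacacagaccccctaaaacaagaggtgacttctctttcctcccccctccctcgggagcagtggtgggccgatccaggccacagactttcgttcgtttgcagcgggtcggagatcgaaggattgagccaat
Ezh2 had TTTGGCGC at bases 4 to 11 after the start, and Suz12 had TTTCCCGC at bases -219 to -212. Among 9339 tested genes with a window of this length 4.73% held a motif, as did 7 of 29 cell cycle genes, 0 of 17 PRC1 genes and 0 of 14 partners of RBBP4 and RBBP7 (lists described below). The windows of Eed, Ezh1, Rbbp4, Rbbp7, Jarid2 and Kdm6a held none. A match describes letters in the sequence, and binding was not measured. Any part of E2F factors in the changes of these genes was not tested.

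**Figure D4:**
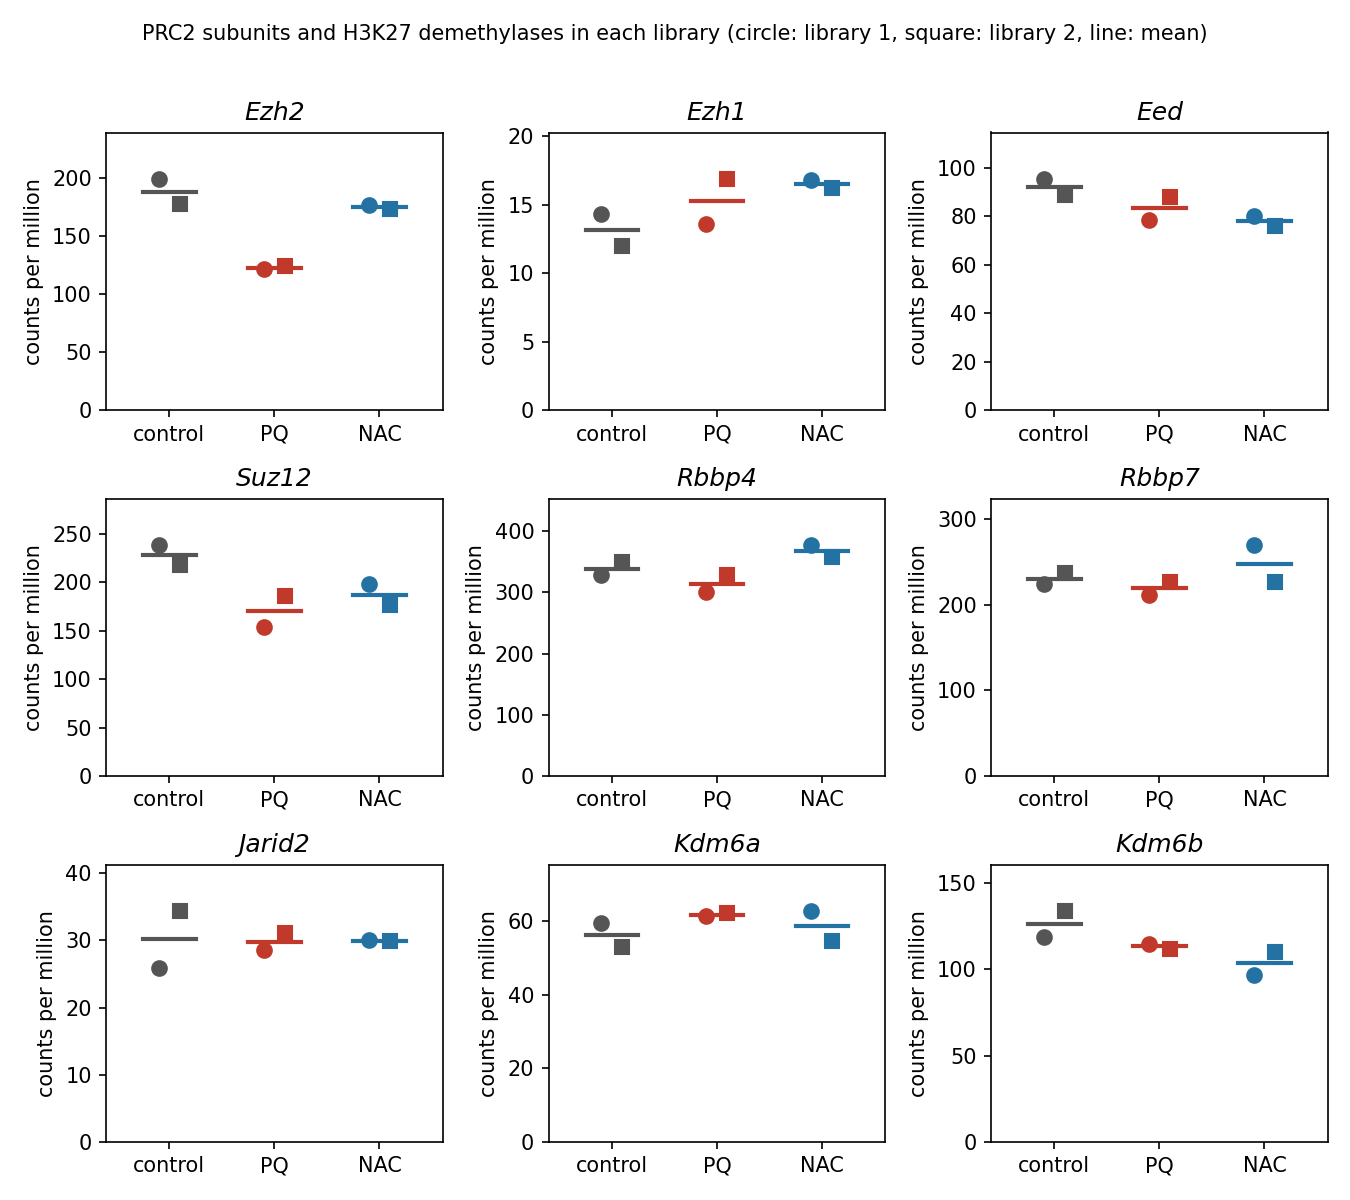
CPM of each gene in every library (circle library 1, square library 2, line the mean of 2). For Ezh2 the PQ libraries, at 121 and 124, lie under the controls at 199 and 177 and the NAC libraries at 176 and 173.

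Rbbp4 and Rbbp7 encode histone-binding proteins that serve PRC2 and several other chromatin complexes. Rbbp4 (NCBI gene 19646, chr4:129307100-129335370) had 328 and 349 CPM in control, 300 and 328 in PQ, and 378 and 358 in NAC. PQ met control at 328, and NAC lay above both groups. PQ against NAC gave -0.23 (SE 0.09, edgeR adjusted p = 0.062), and passed the threshold without either control library (-0.23 each), when scaled by library totals (-0.25) and in a fit of those 4 libraries alone (-0.23). Its counts were fractional in all 6 libraries, so reads were shared with other sequences and the value is uncertain. Rbbp7 (NCBI gene 245688, chrX:162760372-162779090) ranged from 211 to 270 CPM over the 6 libraries, with groups that overlapped. Its log2 fold change was -0.07 in PQ and 0.11 in NAC. Jarid2, which helps to bring PRC2 to chromatin (NCBI gene 16468, chr13:44730774-44921643), ranged from 25.9 to 34.4 CPM. The 2 extremes were both controls, and fold changes were -0.02 in PQ and -0.01 in NAC, with signs that turned under other scalings.

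Annotated genes overlap Ezh2, Rbbp4, Rbbp7 and Kdm6b, and reads of those neighbours were not told apart from theirs. The study's methods name a stranded kit for Illumina libraries; whether counting used strand is not given in the sources used here.

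Neither demethylase gene passed the test, although in NAC against control Kdm6b had the lowest fold change of the 9, close to that of Suz12. Kdm6b, the demethylase known as JMJD3 that is induced in many stress and differentiation settings (NCBI gene 216850, chr11:69398508-69420367), had 118.6 and 134 CPM in control, 115 and 112 in PQ, and 97 and 110 in NAC. Both treatments lay under both controls, NAC lowest. PQ against control was -0.15 (interval -0.36 to 0.06, edgeR adjusted p = 0.33). NAC against control was -0.29 (interval -0.50 to -0.08, edgeR adjusted p = 0.054); it passed the threshold with no filter on low values (-0.29) and without control 1 (-0.37). Against the TRIZOL control, NAC 1 and NAC 2 were -0.46 and -0.29. Kdm6a, also called UTX (NCBI gene 22289, chrX:18160862-18279936), had 59.4 and 52.9 CPM in control, 61.3 and 62.2 in PQ, and 62.8 and 54.7 in NAC. PQ lay just above the controls and NAC overlapped them, with log2 fold changes of 0.14 and 0.07 and edgeR adjusted p of 0.42 and 0.73. Kdm6b over Kdm6a in FPKM was 1.59 and 2.01 in control, 1.49 and 1.44 in PQ, and 1.23 and 1.60 in NAC.

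Uty, the Y-linked paralog of Kdm6a with weak demethylase activity, had 47.0 and 39.6 CPM in control, 54.8 and 59.6 in PQ, and 47.2 and 41.2 in NAC. PQ was highest, and NAC and control overlapped. Uty rose in PQ against control by a log2 fold change of 0.40 (SE 0.12, edgeR adjusted p = 0.023) and against NAC by 0.37 (SE 0.12, edgeR adjusted p = 0.021). Within protocols PQ minus control was 0.22 (NucleoSpin) and 0.59 (TRIZOL). Against control it missed the threshold without control 2 (0.28), PQ 1 (0.46) or PQ 2 (0.34), and against NAC without PQ 2 (0.31) or NAC 2 (0.27). Kdm6a and Uty had fractional counts in all 6 libraries, and reads common to both cannot be assigned.

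The genes whose log2 CPM followed that of Ezh2 most closely over the 6 libraries were Rflnb (Pearson r 0.9965), Usp44 (0.996) and Nrf1 (0.9952). Rflnb had 13.9 and 12.2 CPM in control, 6.47 and 6.35 in PQ, and 11.7 in both NAC libraries, the same order of groups as Ezh2. For Kdm6b they were Galk1 (0.9906), Rara (0.9905) and Usp5 (0.9865). Galk1 had 84.1 and 104 CPM in control, 73.1 and 68.1 in PQ, and 45.6 and 67.1 in NAC, with NAC 1 lowest as for Kdm6b. Since the libraries fall into 3 groups, these r values are a description and carry no p.

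Cell cycle genes stood apart in PQ. Of a list of 35, all tested, 32 fell in PQ against control, beside 9.45% of all genes tested. The other 3 did not pass, and the median log2 fold change of the list was -0.64, against 0 over all genes. The number that fell was 30 with DESeq2 and 28 with limma on log2(FPKM + 1), and 25 to 34 without single libraries, lowest without PQ 1. Mki67, a marker of cycling cells, fell most (-1.13, SE 0.10, edgeR adjusted p = 5.7e-07), from 1050 and 1080 CPM to 451 and 521. Mybl2, a transcription factor of dividing cells (-1.04), the mitotic kinase gene Aurkb (-0.96) and E2f8, an E2F repressor (-0.96), also fell. Ezh2, at -0.62, had a value near the median of this list; the part of proliferation in the Ezh2 result was not tested. In NAC against control 4 of the 35 rose and 1 fell, beside 9.01% and 9.64% of all genes tested, with a median of 0.12. Those that rose included Cdc6 (0.60), Mcm4 (0.49) and Ccne2 (0.45), which act in DNA replication and S phase entry, while E2f1 fell (-0.63). The count of 4 ran from 1 to 10 when single libraries were left out: it was 1 without control 1 or NAC 1, where Cdc6, Mcm4 and Ccne2 missed the threshold (lowest 0.44, 0.31 and 0.32), and 10 without control 2. It was 9 with library totals and 7 with no filter on low values, and the 1 that fell became 2 with DESeq2.

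**Figure D5:**
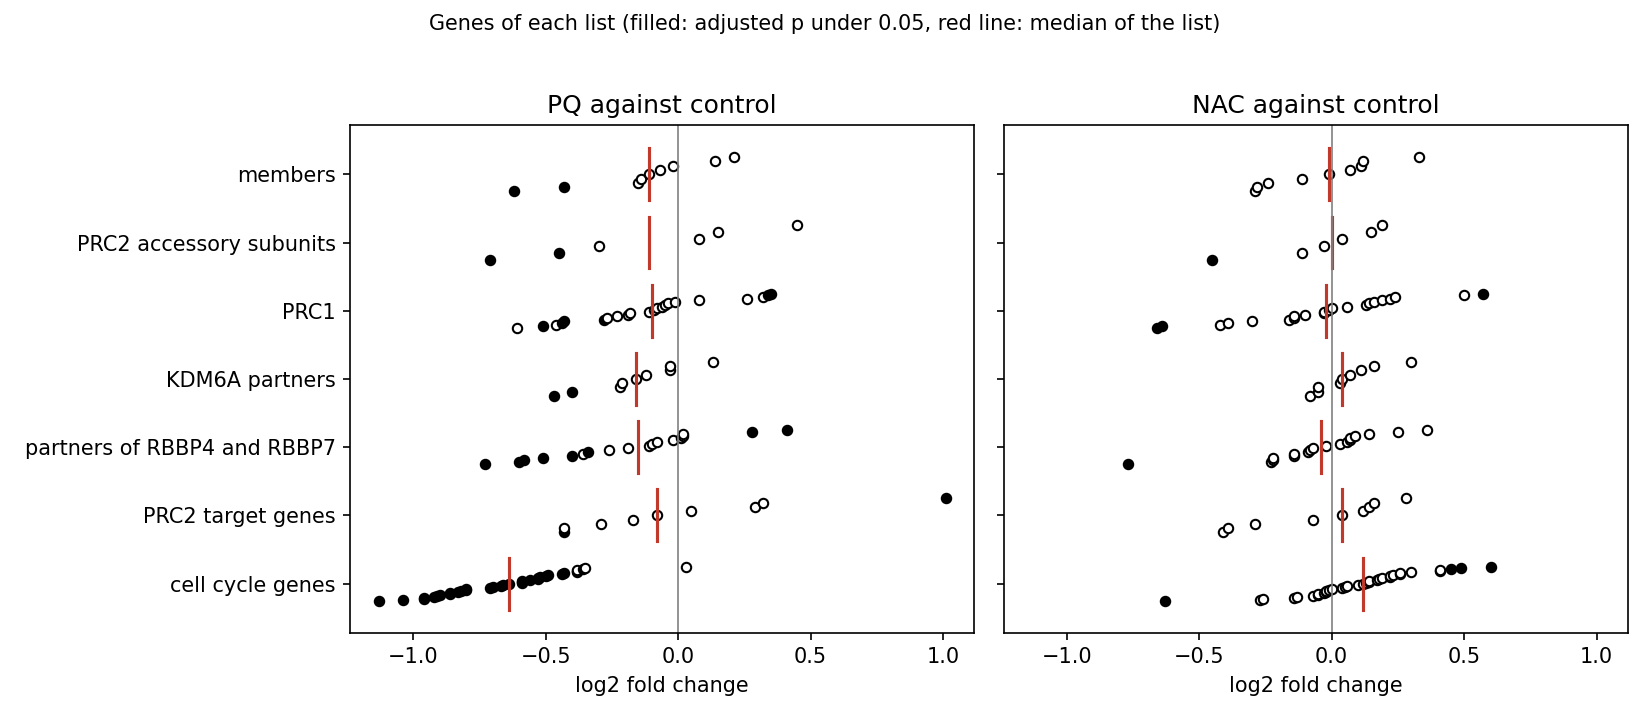
Log2 fold change of the tested genes of 7 lists in PQ and in NAC against control; filled points have an adjusted p under 0.05 and red lines are medians. In PQ the cell cycle genes lie to the left, with 32 of 35 filled and a median of -0.64, whereas the median of the 9 PRC2 and demethylase genes (members) is -0.11.

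Accessory subunits steer PRC2 to its sites. Of 8 listed 6 were tested, Ezhip was not over 3 counts in any library, and 2 fell in PQ, beside 9.45% of all genes tested. Phf19, which binds methylated H3K36, had 20.2 and 21.1 CPM in control, 11.9 and 13.3 in PQ, and 22.9 and 24.4 in NAC, with PQ under the other groups. Its log2 fold change in PQ was -0.71 (SE 0.15, edgeR adjusted p = 0.0024), and -0.63, past the threshold no longer, without PQ 1. Lcorl, the gene of an accessory protein of some PRC2 forms, was -0.45 in both PQ and NAC (edgeR adjusted p = 0.0081 and 0.0075). It missed the threshold without control 1 in both (-0.32 each), without PQ 1 in PQ (-0.35) and without NAC 2 in NAC (-0.38). The median of the 6 was -0.11 in PQ and 0 in NAC. Without PQ 1 both PQ calls were thus lost, and without control 2 another accessory gene was called higher in PQ, making 1.

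PRC1, the partner complex that ubiquitinates histone H2A and compacts chromatin, had 22 listed genes, all tested. In PQ 2 rose and 4 fell, beside 9.76% and 9.45% of all genes tested, with a median of -0.10. In NAC 1 rose and 2 fell, beside 9.01% and 9.64% of all genes tested, with a median of -0.02. Pcgf5, a subunit of variant PRC1, was lower in both (-0.51 in PQ, -0.64 in NAC). Phc1 (-0.44), a polyhomeotic subunit, and Bcor (-0.43), a corepressor of variant PRC1, fell in PQ, and Pcgf2, a subunit of canonical PRC1, fell in NAC (-0.66). Cbx6, a reader of methylated histone H3, rose in PQ (0.35) and NAC (0.57). Pcgf3 (0.34) and Phc3 (-0.28) complete the PQ calls and were named after their values were seen. Without PQ 1 there were 0 higher and 1 lower by edgeR in PQ. Pcgf5 (-0.44), Phc1 (-0.45), Cbx6 (0.27), Pcgf3 (0.38) and Phc3 (-0.27) then missed the threshold. Bcor missed it without PQ 2 (-0.39), Cbx6 without control 1 (0.23), Pcgf3 without control 1 or PQ 2 (0.29 and 0.30), and Phc3 without any single library but control 1 (-0.23 to -0.29). Without PQ 2 the count was 1 higher and 2 lower, and without control 1 it was 0 higher by edgeR. In NAC 2 genes were higher without control 2 or NAC 1, with library totals and with no filter on low values.

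The H2A deubiquitinase genes Bap1, Asxl1 and Asxl2 gave 0 calls by edgeR, DESeq2 and limma in both PQ and NAC, with 1 at an unadjusted p under 0.05 in PQ and 0 in NAC. Among 9 partners of KDM6A in the MLL3 and MLL4 methyltransferase complexes, 2 fell in PQ, beside 9.45% of all genes tested. They were Paxip1 (-0.47, edgeR adjusted p = 0.0067) and the methyltransferase gene Kmt2c (-0.40, edgeR adjusted p = 0.0094). Paxip1 had 66.1 and 75.1 CPM in control, 46.8 and 55.2 in PQ, and 91.2 and 82.3 in NAC, with no overlap. Both calls were lost without PQ 1 (-0.35 and -0.33). In NAC edgeR, DESeq2 and limma called 0 of the 9, with 1 at an unadjusted p under 0.05 and 1 higher without control 2, with library totals or with no filter on low values; medians were -0.16 in PQ and 0.04 in NAC. The acetyltransferase genes Crebbp and Ep300, whose mark competes with methylation at H3K27, gave 0 calls in PQ and in NAC against control by edgeR, DESeq2 and limma, with 0 and 1 at an unadjusted p under 0.05. In PQ against NAC, however, each of these tools called Crebbp lower (-0.37, SE 0.11, edgeR adjusted p = 0.012), a call lost without PQ 1 (-0.38), PQ 2 (-0.35) or NAC 2 (-0.27).

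Genes for other partners of RBBP4 and RBBP7 numbered 18, all tested. In PQ 6 fell and 2 rose, beside 9.45% and 9.76% of all genes tested, with a median of -0.15. Sap30, of the SIN3 deacetylase complex, had 80.1 and 62.8 CPM in control, 39.5 and 46.7 in PQ, and 39.5 and 44.1 in NAC. It fell in both treatments (-0.73 in PQ, edgeR adjusted p = 5.6e-04, and -0.77 in NAC, 2.2e-04) and was the 1 gene called in NAC, where the median was -0.04. Chaf1b (-0.60) and Chaf1a (-0.51), of the chromatin assembly factor that places histones on new DNA, and Hat1 (-0.58), which acetylates new histone H4, fell in PQ. Chaf1a missed the threshold without control 2 (-0.34). Chd3 (0.41), a remodeller, and Sin3b (0.28), a corepressor scaffold, were the 2 that rose, named after their values were seen. Chd3 missed the threshold without control 1 (0.31) or PQ 1 (0.33), and Sin3b in each of the 6 fits without a library (0.22 to 0.34). Without control 2 the NAC counts were 1 higher and 2 lower.

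Of 53 listed targets of PRC2 in embryonic and neural cells, 39 were not over 3 counts in any library and 9 were tested. Among 24 listed genes of the Hoxb, Hoxc and Hoxd clusters 23 were in the first group and the highest count was 4.6. Of the 8 listed Hoxa genes, by contrast, 5 were tested; these were singled out after their values were seen. They ranged from 4.79 CPM for Hoxa2 in PQ 2 to 57.6 for Hoxa5 in PQ 1. In PQ against control edgeR called 1 target higher and 1 lower, beside 9.76% and 9.45% of all genes tested. Eomes, a T-box transcription factor gene with fractional counts, had 3.36 and 3.10 CPM in control, 7.73 and 5.22 in PQ, and 2.00 and 5.16 in NAC. PQ was above both other groups, narrowly over NAC 2. Its log2 fold change was 1.01 (SE 0.33, edgeR adjusted p = 0.04). Lhx2, a LIM homeobox gene, was -0.43 (SE 0.14, edgeR adjusted p = 0.038). Eomes missed the threshold without control 1 (1.05), control 2 (0.96) or PQ 1 (0.69), and Lhx2 without any single library but control 1 (-0.25 to -0.45); DESeq2 called neither. With library totals 2 targets were higher and 0 lower in PQ, and 1 was higher in NAC. In NAC edgeR and DESeq2 called 0 of the 9 and limma 1, with 3 at an unadjusted p under 0.05. Of the Ink4a/Arf locus, Cdkn2a was -0.29 in both PQ and NAC (edgeR adjusted p = 0.23 and 0.24). Cdkn2b, which encodes p15INK4b, was 0.05 in PQ and -0.39 in NAC (adjusted p = 0.88 and 0.13).

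Several of these calls also changed with the model. DESeq2 did not call Phc3, Sin3b, Eomes or Lhx2 in PQ. Limma on log2(FPKM + 1) did not call Uty, Lcorl, Cbx6, Phc3, Kmt2c, Chd3, Eomes or Lhx2 in PQ against control, nor Uty in PQ against NAC or Lcorl in NAC. With the labelled protocol as a term, Uty missed the threshold in PQ against NAC, Phc3 and Sin3b in PQ against control, and Ccne2 in NAC. Cbx6, Phc3, Sin3b and Lhx2 missed it in PQ against control with a block for the replicate sets of the study's source data. Whether libraries of a set are paired cultures was not established. Phc3 and Sin3b also missed it with no filter on low values and in the fit of 4 libraries, Sin3b with edgeR's own filter, Phc3 and Lhx2 with library totals, and Lhx2 in the fit of 4 libraries.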

How the data were processed

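The authors deposited an expected count and an FPKM value (scaled by length and library total) per gene for each library. The submitters' processing notes name TopHat2 2.0.11, Cufflinks 2.1.1 and mm9 for control 1 and PQ 1, and HISAT2 2.0.4, Bowtie2 2.2.5, RSEM and mm10 for the other 4, although all 6 tables have columns of the type RSEM writes. The tables hold no coordinates; positions are those of RefSeq on GRCm38.p6. Symbols were found for 99.7% of gene IDs.

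Expected counts were rounded and tested with edgeR 4.0.16 in R 4.3.3 (quasi-likelihood, TMM factors, 2-sided, 3 groups of 2 libraries in 1 fit), with Benjamini-Hochberg adjustment over 11717 genes, those whose FPKM averaged 1 or more. The fit was also run on simulated counts. These had a common spread for all genes and no protocol difference, so that run does not test the fit on the design used here. Alternatives used DESeq2 1.42.0, limma 3.58.1, other filters and scalings, the labelled protocol or set as a term, and fits without each library. Depth was 9849392 and 10040827 expected counts in control, 10388731 and 9680436 in PQ, and 10698241 and 9907726 in NAC; a gene that never exceeded 3 counts was taken as not detectable. Fractional counts, from reads shared between genes, occurred in 23.2% of tested genes.

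The 9 genes and the lists were chosen with earlier results of these data known. Named genes are the 9, those of each list with an adjusted p under 0.05 against control (at most the 4 largest changes per list and comparison), Ezhip, which was not over 3 counts, Hoxa2 and Hoxa5 for a range, the 3 most alike to Ezh2 and to Kdm6b, the tested genes of the 2 lists with 0 calls against control, and Cdkn2a, Cdkn2b and Uty. Pcgf3, Phc3, Chd3 and Sin3b were also named, beyond the limit of 4 and after their values were seen. Marker genes were named as fixed lists. Some results on genes that these rules include are not reported here.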

Additional observations from a re-analysis of the deposited data

How the results depend on the processing

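Over 16 alternatives, Ezh2 was called in each for PQ against control (-0.70 to -0.53) and PQ against NAC (-0.54 to -0.49), and Suz12 in 15 of 16 for PQ against control. The number of the 9 genes called stayed at 2, 0 and 1 (PQ against control, NAC against control, PQ against NAC) except that it was 2 for PQ against NAC with library totals and with only the 4 libraries compared, where Rbbp4 was added, and 2 for NAC with no filter on low values. Without single libraries it ran from 1 to 2, 0 to 1 and 1 to 2, a lone library being assumed to vary like the other groups. Jarid2 changed sign: in PQ against control 0.01 with library totals, 0.03 and 0.04 with limma, in NAC 0.03, 0.05 and 0.06 likewise, and 0.13 in PQ against NAC with the labelled protocol as a term; the cause was not tested. Fits without single libraries changed the sign of uncalled values for Jarid2 (-0.21 to 0.20, -0.20 to 0.21 and -0.07 to 0.06 in the same order of comparisons), Kdm6a (-0.04 to 0.16 in NAC, -0.02 to 0.18 in PQ against NAC), Rbbp7 in NAC (-0.03 to 0.23), Ezh1 in PQ against NAC (-0.28 to 0.03) and Cdkn2b in PQ (-0.07 to 0.18). Of 432 values of single genes among the 9, 407 kept sign and side of the threshold, 16 changed sign, 8 gained a call and 1 lost it. Scaled values in the study's source data placed control 1, PQ 1 and NAC 2 in 1 set and control 2, PQ 2 and NAC 1 in the other. Each set matched for 100% of 106 genes. NAC 2 thus shares a set with the NucleoSpin libraries, although it is labelled TRIZOL. A replicate block by these sets gave 2, 0 and 1. Deviations of libraries of a set correlated at -0.10 (control and PQ), -0.20 (control and NAC) and 0.14 (PQ and NAC), so a pairing of cultures within sets was not established. Alternatives for the other named genes and lists were run after seeing the data. With 2 libraries a group, small differences could not be resolved, and Ezh1, with at most 181 counts, was least precise.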
